A study of Mus musculus with 24 samples.

Results

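The 10 genes described here, Sox2, Jun, Pax3, Id2, Id4, Ngfr, Cdh19, Fabp7, Cdh2 and Tfap2a, are genes of the immature Schwann cell. They were chosen by name, each read through the gene probe with the highest mean over all arrays. The array carried 16 probes for them among 56605 gene probes, and all 10 chosen probes were among the 36409 probes tested (those with 1 group or more in which each array's signal was well above background). RNA came from the ventral roots (efferent nerve fibres, EN, mainly motor axons) and the dorsal roots (afferent nerve fibres, AN, mainly the central branches of sensory axons) of spinal segments L4 to L6 in C57BL/6 mice of both sexes. The roots were taken on the day of birth (P0) and at 1, 3 and 5 weeks of age (1 W, 3 W and 5 W), which gave 8 groups with 3 one-colour microarrays each, 24 in all. No animal carried an allele or received an agent named in the sources used here, and 9 animals were used per time point. The fibres of each group went into 1 tube, and the series states 3 independent experiments. Nothing says that the arrays of a group came from separate animals, so the p-values measure the spread between these arrays, which may be technical.

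Schwann cells arise from the neural crest, divide along growing axons and, around birth, sort out the large axons. A cell with a large axon becomes a myelinating Schwann cell, while cells that hold bundles of thin axons become non-myelinating Remak cells and keep several genes of the immature state. Sox2, Jun, Pax3 and Id2 are known as brakes on myelination, Ngfr and Cdh2 serve signalling and adhesion before the switch, and Fabp7, Cdh19 and Tfap2a mark earlier steps of the lineage.

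Values are log2 normalized signals, n = 3 arrays per group, listed in replicate order, and a change is the difference of 2 group means with its standard error (SE). A change was called at a Benjamini-Hochberg adjusted p under 0.05 in limma, with the correction over all 36409 probes. The probes were well above background on all 24 arrays, except Pax3 on 23 (2 of 3 in EN at 5 W) and Tfap2a on 22 (1 of 3 in EN at 5 W). In the mm9 coordinates of the array files, the Sox2 probe lies at chr3:34551260-34551316, that of Pax3 at chr1:78099294-78099353, that of Id2 at chr12:25778904-25778963 and that of Fabp7 at chr10:57508039-57508098. The exon or UTR under each probe was not looked up here.

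For the label of the tissue, 10 Schwann lineage markers were read, all of them tested and the member Cdh19 among them. Their mean level lay between 13.60 and 13.77 at P0 and between 14.07 and 14.75 later. The mean of 8 endoneurial fibroblast markers was about as high, 13.46 to 13.79 at P0 and 13.70 to 14.57 later, so these levels alone do not single out Schwann cells. The dorsal roots also held sensory neuron transcripts, and so did both roots at P0, read through 8 markers of which Isl1 is a motor neuron marker too. The mean of 8 sensory neuron markers was 11.73 to 13.25 in all P0 arrays, 12.56 to 12.81 in AN at 1 W and 7.59 to 9.34 in EN at 1 W. It then ran from 9.44 to 14.04 in AN at 3 W and from 7.80 to 11.11 in AN at 5 W, against 7.70 to 8.40 in EN at those ages. The third AN array of 3 W, with the value of 14.04, correlated least with its own group (mean r 0.961, others 0.963 to 0.993) and had the lowest array weight (0.216, others 0.31 to 3.08). Age was tied in part to the slide, the glass that carries several arrays: 3 W shared none with P0 or 1 W and was linked to them through 5 W arrays alone. In bulk RNA, fewer cells of a type and less RNA per cell cannot be told apart.

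Most of these genes fell after birth in both kinds of fibre, and the fall was steeper in EN by 3 W for Pax3 and Id2 and by 5 W for Sox2 too. In EN, 6 of 10 genes were called lower than P0 at 1 W, where 11.6% of all probes tested were called lower and 27.1% in either direction. At 3 W and again at 5 W 7 of 10 were lower, where the background was 26% lower at both ages and 55% and 54.1% in either direction. In AN, 2 of 10 were lower at 1 W (background 9.35% lower, 12.3% higher, 21.7% in all), 6 of 10 at 3 W (24.9% lower, 51.7% in all) and 7 of 10 at 5 W (24.2% lower, 50.6% in all). Cdh19 was the only member called higher than P0, in EN at all later ages (background higher 15.5%, 29% and 28.2% in order of age) and in AN from 3 W (26.8% and 26.4%). In EN the median change of the 10 genes from P0 was, in order of age, -0.92, -1.71 and -2.01, against 0.06, 0.04 and 0.04 over all probes tested. In AN it was -0.39, -1.15 and -1.41 at those ages, against 0.02, 0.01 and 0.03. With a fold above 2 asked for as well, 2 members were called in EN and 1 in AN at 1 W (background 11.9% and 8.58%, or 13.5% and 10.3% on the unadjusted p).

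Between 1 W and 3 W, 6 of 10 genes fell in EN (background 14.2% lower, 13.2% higher, 27.4% in all) and 5 of 10 in AN (15.3% lower, 29.9% in all), where Cdh19 rose (14.6% higher). The 1 W and 3 W arrays shared no slide, so that this contrast rests on different slides throughout. With the slide as a block, estimated through the 5 W arrays, 3 of the 6 in EN (Id4, Fabp7 and Tfap2a, adjusted p 0.954, 0.414 and 0.537) and 2 of the 5 in AN (Fabp7 and Tfap2a, adjusted p 0.549 and 0.267) were not called. Leaving out 1 array ended the calls of Id4 and Fabp7 in EN, and of Fabp7 and Cdh19 in AN, in 5 of 6 fits each (adjusted p up to 0.105, 0.0859, 0.2 and 0.0926), and that of Tfap2a in EN in 3 (up to 0.0893). Between 3 W and 5 W no member was called in EN, where 2.25% of all probes were called in either direction and 2 members, Tfap2a and Cdh19, had an unadjusted p under 0.05. In AN 1 of 10, Cdh19, was higher (background 2.19% higher, 3.67% in all, and 3.95% on an unadjusted p with a fold above 2).

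**Figure D1:**
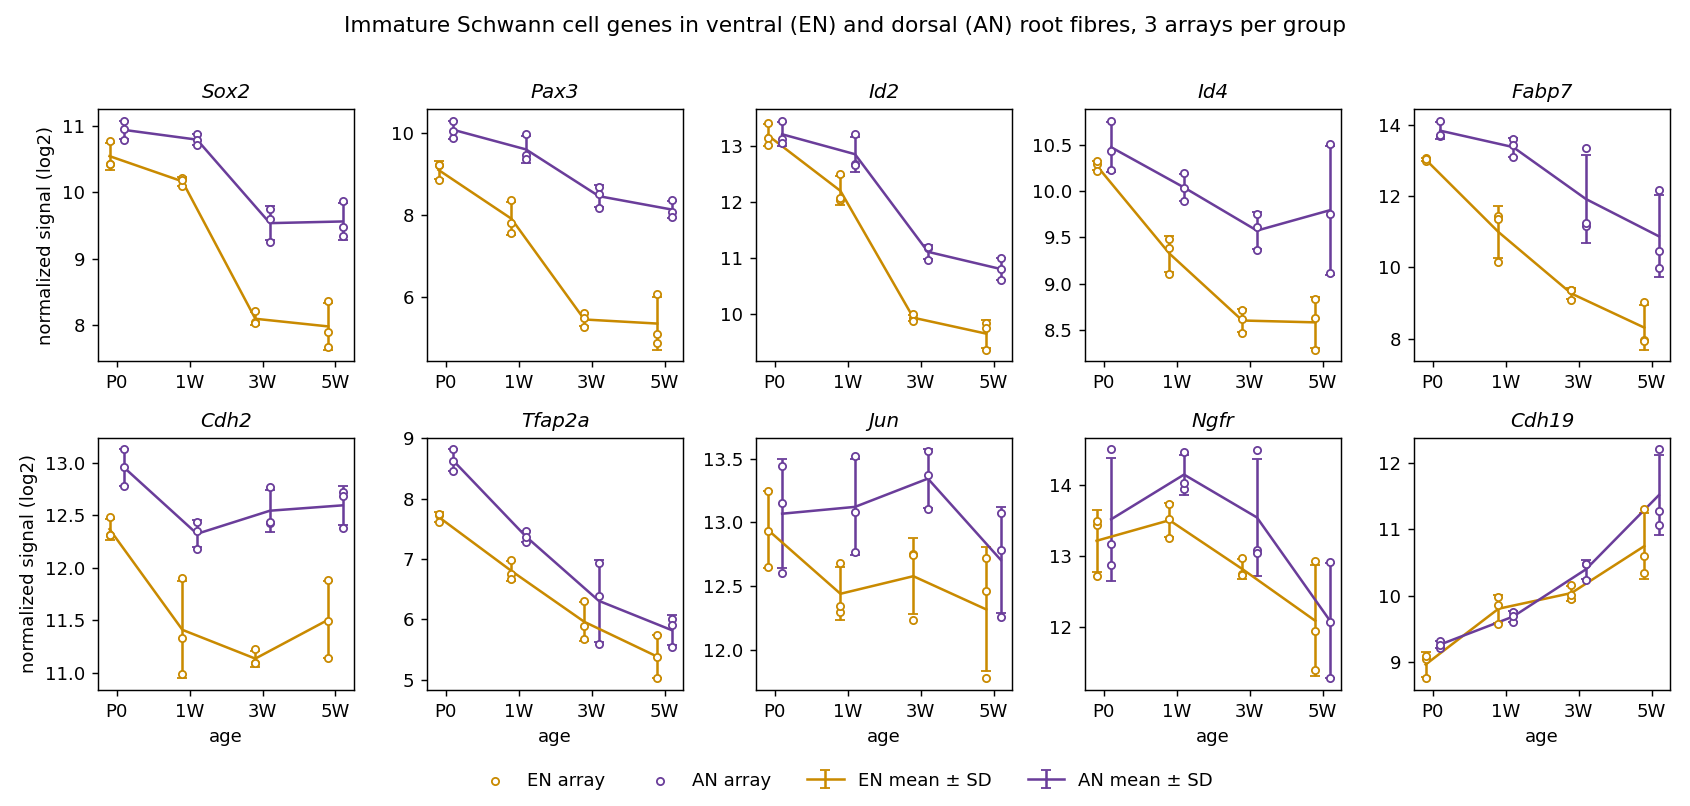
Log2 normalized signal (vertical axes) of each of the 10 genes against age from P0 to 5 W, with a point for each of the 3 arrays of a group and a line through the group means, for AN and EN. The lines for Sox2, Pax3, Id2 and Fabp7 fall with age and lie lower in EN, for Id2 from 1 W on and for the others from P0 on. The line for Cdh19 rises in both roots.

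Among the transcription factors, Sox2, which keeps Schwann cells from starting the myelin programme, dropped between the first and the third week. In EN the arrays read 10.78, 10.44 and 10.42 at P0, 10.22, 10.09 and 10.19 at 1 W, 8.05, 8.21 and 8.03 at 3 W, and 7.68, 7.90 and 8.36 at 5 W. In AN they read 11.08, 10.80 and 10.96 at P0, 10.89, 10.79 and 10.71 at 1 W, 9.60, 9.76 and 9.26 at 3 W, and 9.48, 9.34 and 9.87 at 5 W. Every array of 3 W and 5 W lay below every P0 and 1 W array of the same root. The change from P0 to 5 W was -2.57 (SE 0.17) in EN, 5.93-fold lower with an adjusted p of 8.82e-10, and -1.38 in AN, 2.6-fold lower with an adjusted p of 2.5e-06. The change from 1 W to 3 W was -2.07 in EN and -1.26 in AN (adjusted p 1.92e-07 and 3.99e-05), while that from P0 to 1 W was not called in either root (-0.38 and -0.15, adjusted p 0.115 and 0.609). With the slide as a block the change of Sox2 in EN at 1 W was called at the same -0.38 (adjusted p 0.0254).

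Pax3, a paired-box factor of the neural crest, showed the widest separation between the roots at 3 W and 5 W. In EN the arrays read 8.85, 9.24 and 9.23 at P0, 7.81, 7.56 and 8.36 at 1 W, 5.59, 5.48 and 5.26 at 3 W, and 5.08, 6.07 and 4.87 at 5 W. In AN they read 9.88, 10.07 and 10.32 at P0, 9.47, 9.37 and 9.99 at 1 W, 8.70, 8.53 and 8.17 at 3 W, and 8.08, 8.38 and 7.96 at 5 W. The EN arrays of 3 W and 5 W came near the lowest values still above background on an array (3.71 to 5.87), whereas no AN array did. Pax3 was 2.29-fold lower than P0 in EN at 1 W (-1.20, SE 0.27, adjusted p 0.00301), 12.7-fold at 3 W (-3.66, adjusted p 4.3e-09) and at 5 W, where 2 of 3 EN arrays were above background, 13.6-fold (-3.76, adjusted p 1.8e-09). In AN the change was not called at 1 W (-0.48, adjusted p 0.226) and was 3.09-fold at 3 W (-1.63, adjusted p 6.56e-05) and 3.88-fold at 5 W (-1.95, adjusted p 7.33e-06).

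Tfap2a, an AP-2 factor of the neural crest that is kept in Schwann cell precursors, fell in both roots from the first week on. Its EN arrays read 7.73, 7.61 and 7.75 at P0, 6.99, 6.75 and 6.67 at 1 W, 5.89, 6.31 and 5.67 at 3 W, and 5.75, 5.38 and 5.02 at 5 W. Its AN arrays read 8.63, 8.45 and 8.82 at P0, 7.28, 7.46 and 7.37 at 1 W, 5.59, 6.39 and 6.93 at 3 W, and 6.00, 5.91 and 5.55 at 5 W. All arrays of 1 W and later lay below all P0 arrays of their root. The fall from P0 reached -2.31 (SE 0.25, adjusted p 4.59e-07) in EN at 5 W, where 1 of 3 arrays was above background, and -2.81 in AN (7.02-fold, adjusted p 3.81e-08), and it was already called at 1 W (-0.90 and -1.26, adjusted p 0.0137 and 0.00154). The changes from 1 W to 3 W (-0.84 in EN, -1.06 in AN, adjusted p 0.0198 and 0.00425) were not called with the slide as a block (-0.36 and -0.58, adjusted p 0.537 and 0.267).

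Jun, the AP-1 subunit that opposes the myelin programme and returns after nerve injury, was not called in any of the 17 comparisons and had an unadjusted p under 0.05 in 4 of them. EN read 12.65, 13.25 and 12.93 at P0 and 12.46, 11.77 and 12.72 at 5 W. AN read 12.60, 13.44 and 13.16 at P0 and 12.79, 12.25 and 13.08 at 5 W. The P0 and 5 W arrays overlapped in both roots. The changes from P0 to 5 W were -0.63 (SE 0.28) in EN and -0.36 in AN, with adjusted p of 0.0666 and 0.296. With the slide as a block they were called, at -1.07 (adjusted p 0.0021) and -0.80 (adjusted p 0.0142), and so was EN at 3 W (-1.19, adjusted p 0.0102). On both roots the second array of 5 W read lowest for Jun and also for 8 dissection or stress response genes (mean 9.70 in AN and 9.67 in EN, 10.80 to 11.32 on the other 4 arrays of 5 W). Their part in the values of Jun was not tested.

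Id2 and Id4 code for helix-loop-helix proteins that hold basic helix-loop-helix factors away from DNA. Id2 fell in both roots. EN read 13.13, 13.41 and 13.02 at P0, 12.03, 12.07 and 12.49 at 1 W, 9.93, 9.999 and 9.89 at 3 W, and 9.37, 9.84 and 9.76 at 5 W. AN read 13.12, 13.45 and 13.04 at P0, 12.68, 12.66 and 13.21 at 1 W, 11.18, 11.19 and 10.97 at 3 W, and 10.61, 11.0005 and 10.81 at 5 W. The roots overlapped at P0, and from 1 W on every AN array lay above every EN array of its age. Id2 was 1.99-fold lower than P0 in EN at 1 W (-0.99, SE 0.18, adjusted p 5.27e-04), 9.49-fold at 3 W (-3.25, adjusted p 1.3e-10) and 11.5-fold at 5 W (-3.53, adjusted p 2.34e-11). In AN it was not called at 1 W (-0.35, adjusted p 0.174) and was 4.25-fold lower at 3 W (adjusted p 2.76e-08) and 5.26-fold at 5 W (adjusted p 2.76e-09).

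Id4 fell in EN at each age. Its EN arrays read 10.29, 10.22 and 10.32 at P0, 9.11, 9.39 and 9.48 at 1 W, 8.62, 8.72 and 8.47 at 3 W, and 8.83, 8.63 and 8.29 at 5 W, with no overlap between P0 and any later age. Its AN arrays read 10.23, 10.76 and 10.43 at P0, 10.03, 9.89 and 10.19 at 1 W, 9.36, 9.61 and 9.75 at 3 W, and 9.76, 10.51 and 9.11 at 5 W. The second AN array of 5 W lay within the P0 range, and that array also had the highest means of 5 W for the astrocyte and oligodendrocyte markers (11.90 and 10.33), whose part in the value was not tested. The change from P0 to 5 W was -1.70 (SE 0.24, adjusted p 1.16e-05) in EN and -0.68 (adjusted p 0.0267) in AN. The AN call was lost with the slide as a block (-0.40, adjusted p 0.103) and without any 1 of 4 arrays: the second (adjusted p 0.115) or the third (0.0509) of P0, or the first (0.062) or the third (0.209) of 5 W. The AN call at 3 W (-0.90, adjusted p 0.00486) was lost with the slide as a block as well (-0.14, adjusted p 0.724).

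The promoters of Sox2, Id2, Id4, Fabp7 and Tfap2a are printed because these genes, with Pax3, were called lower than P0 in both roots at 3 W and 5 W (no Pax3 promoter is shown), with the 250 bases before the RefSeq transcript start, 5′ to 3′ on the gene's strand (RefSeq, GRCm38.p6). They are chr3:34649745-34649994 on the plus strand for Sox2, chr12:25096093-25096342 on the minus strand for Id2, chr13:48260866-48261115 on the plus strand for Id4, chr10:57784673-57784922 on the plus strand for Fabp7, and, for the 2 starts of Tfap2a on the minus strand, chr13:40734921-40735170 and chr13:40733796-40734045. Capitals mark CCAAT or its reverse complement ATTGG, the box bound by the NF-Y factor.
Sox2: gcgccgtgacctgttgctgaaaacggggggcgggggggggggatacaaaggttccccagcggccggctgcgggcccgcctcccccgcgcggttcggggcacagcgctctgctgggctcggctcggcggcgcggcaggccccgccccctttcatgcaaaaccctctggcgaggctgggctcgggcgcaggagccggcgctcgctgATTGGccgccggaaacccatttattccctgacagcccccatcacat
Id2: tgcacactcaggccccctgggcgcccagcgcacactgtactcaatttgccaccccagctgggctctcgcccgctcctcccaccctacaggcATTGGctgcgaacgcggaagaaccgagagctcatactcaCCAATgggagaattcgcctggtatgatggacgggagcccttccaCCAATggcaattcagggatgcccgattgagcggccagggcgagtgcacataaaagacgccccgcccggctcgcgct
Id4: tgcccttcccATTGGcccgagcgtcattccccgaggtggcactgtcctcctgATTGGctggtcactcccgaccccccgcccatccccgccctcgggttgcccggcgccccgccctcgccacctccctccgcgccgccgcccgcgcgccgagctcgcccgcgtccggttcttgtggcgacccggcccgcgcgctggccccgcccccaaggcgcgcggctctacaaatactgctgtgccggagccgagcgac
Fabp7: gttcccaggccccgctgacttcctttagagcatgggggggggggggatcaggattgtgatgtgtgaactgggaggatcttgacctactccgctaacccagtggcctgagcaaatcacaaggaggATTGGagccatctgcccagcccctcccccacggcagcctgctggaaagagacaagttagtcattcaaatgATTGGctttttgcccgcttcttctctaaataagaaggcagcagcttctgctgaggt
Tfap2a, upstream start: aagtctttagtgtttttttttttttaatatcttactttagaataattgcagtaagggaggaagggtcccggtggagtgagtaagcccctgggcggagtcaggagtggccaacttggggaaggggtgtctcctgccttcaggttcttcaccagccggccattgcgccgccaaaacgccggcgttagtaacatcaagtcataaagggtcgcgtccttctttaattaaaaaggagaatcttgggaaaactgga
Tfap2a, downstream start: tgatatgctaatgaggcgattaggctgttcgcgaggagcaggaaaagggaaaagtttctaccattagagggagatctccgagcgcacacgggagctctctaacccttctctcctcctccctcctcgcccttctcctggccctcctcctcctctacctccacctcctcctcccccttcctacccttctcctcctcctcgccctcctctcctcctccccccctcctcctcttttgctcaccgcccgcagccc
The CCAAT box stood in 4 of the 6 windows, 1 in Sox2 (46 bases before the start), 3 in Id2 (159, 120 and 76 bases), 2 in Id4 (240 and 198 bases) and 2 in Fabp7 (126 and 56 bases), and in neither Tfap2a window. On either strand, 33.8% of 32851 RefSeq promoters of the same length held it, and 5 of the 8 windows found for the members, the fifth that of Jun (65 bases before the start). The motif CANNTG, which the partners of Id proteins bind, lay 196 bases before the start of Id2 and 118 and 62 bases before that of Fabp7, was in none of the Sox2, Id4 and Tfap2a windows, and was found in 66.2% of all promoters. A match is a run of letters and not a measured site.

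Fabp7, the brain-type fatty acid binding protein of Schwann cell precursors, had the deepest fall of the 10 by 5 W. In EN the arrays read 12.98, 13.07 and 13.04 at P0, 10.16, 11.44 and 11.37 at 1 W, 9.36, 9.35 and 9.08 at 3 W, and 9.02, 7.96 and 7.94 at 5 W. In AN they read 13.69, 14.12 and 13.70 at P0, 13.62, 13.09 and 13.43 at 1 W, 11.17, 11.25 and 13.34 at 3 W, and 12.18, 10.45 and 9.99 at 5 W. Each later group lay below P0 in its root, and at every age, P0 included, each AN array lay above each EN array. Fabp7 was 26.4-fold lower than P0 in EN at 5 W (-4.72, SE 0.54, adjusted p 7.07e-07) and 7.82-fold lower in AN (-2.97, adjusted p 1.45e-04). At 1 W it was 4.11-fold lower in EN (-2.04, adjusted p 0.00869), a call lost without the first 1 W EN array (-1.62, adjusted p 0.0586), and -0.46 in AN (adjusted p 0.602). The change in AN at 3 W (-1.92, adjusted p 0.00598) was not called with the slide as a block (-1.34, adjusted p 0.176). The AN arrays of 3 W and 5 W with the most sensory neuron transcripts (14.04 and 11.11) were also those with the most Fabp7 of their age (13.34 and 12.18). Fabp7 is also a marker of the satellite glia around sensory neurons, and the part of those cells was not tested.

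Ngfr, the low-affinity neurotrophin receptor p75, kept a high level until 3 W. EN read 12.71, 13.43 and 13.50 at P0, 13.26, 13.52 and 13.73 at 1 W, 12.97, 12.74 and 12.72 at 3 W, and 11.93, 11.38 and 12.93 at 5 W. AN read 12.88, 14.51 and 13.17 at P0, 13.95, 14.03 and 14.47 at 1 W, 13.09, 13.05 and 14.50 at 3 W, and 12.06, 11.28 and 12.92 at 5 W. The replicates spread as widely as the ages differed, and the 5 W arrays overlapped those of P0 in both roots. Ngfr was called in AN at 5 W alone (-1.43, SE 0.48, 2.7-fold lower, adjusted p 0.0179), and the call was lost without the second P0 array (-0.94, adjusted p 0.122) or the second 5 W array (-1.03, adjusted p 0.0989). In EN at 5 W the change was -1.13 (adjusted p 0.0531). With the slide as a block, EN at 3 W and 5 W were called (-1.89 and -1.78, adjusted p 0.014 and 0.00216), and so was the change from 1 W to 3 W in EN and in AN (-2.16 and -2.07, adjusted p 0.0137 and 0.0139). On the slide that held arrays of both P0 and 5 W, the difference between those ages was -2.08 in EN and -2.56 in AN. In each root this set 1 array of 5 W against 2 of P0. That array was the second of 5 W, which read lowest for Ngfr at its age.

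The adhesion genes moved apart. Cdh2, or N-cadherin, which joins immature Schwann cells to axons and to each other, was lower than P0 in EN at each later age and in AN at 1 W. EN read 12.31, 12.48 and 12.31 at P0, 10.99, 11.33 and 11.90 at 1 W, 11.09, 11.22 and 11.09 at 3 W, and 11.14, 11.49 and 11.88 at 5 W. AN read 12.95, 13.13 and 12.78 at P0, 12.18, 12.35 and 12.44 at 1 W, 12.42, 12.43 and 12.77 at 3 W, and 12.38, 12.72 and 12.68 at 5 W. The lowest level in each root was thus reached by 3 W or before, and no later age overlapped P0. The change from P0 in EN was -0.96 at 1 W, -1.23 at 3 W and -0.86 at 5 W (SE 0.20, adjusted p 0.00176, 5.14e-05 and 0.00137). In AN it was -0.63 at 1 W (adjusted p 0.0304), -0.41 at 3 W (0.0947) and -0.36 at 5 W (0.145). The call in AN at 1 W was lost in 4 of the 6 fits that each left out 1 array of the 2 groups (adjusted p up to 0.108), and AN at 3 W was called with the slide as a block (-0.73, adjusted p 0.028).

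Cdh19, a cadherin found in the Schwann cell lineage from the precursor on, was the 1 member that rose. EN read 9.04, 8.75 and 9.09 at P0, 9.85, 9.98 and 9.57 at 1 W, 10.16, 9.94 and 10.01 at 3 W, and 10.59, 11.30 and 10.34 at 5 W. AN read 9.22, 9.31 and 9.26 at P0, 9.75, 9.60 and 9.70 at 1 W, 10.47, 10.48 and 10.23 at 3 W, and 11.06, 12.20 and 11.27 at 5 W. Every later array stood above the P0 arrays of its root. The rise to 5 W was 3.44-fold in EN (1.78, SE 0.24, adjusted p 5.68e-06) and 4.75-fold in AN (2.25, adjusted p 3.49e-07). The change from 3 W to 5 W in AN (1.12, 2.17-fold, adjusted p 0.0134) was not called without the second 5 W array (0.77, adjusted p 0.0631), the array with the highest astrocyte and oligodendrocyte marker means of its age, nor with the slide as a block (0.79, adjusted p 0.0827). The rise in EN at 1 W (0.84, adjusted p 0.0147) was not called without the second P0 array (0.0614) or the second 1 W array (0.0643).

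**Figure D2:**
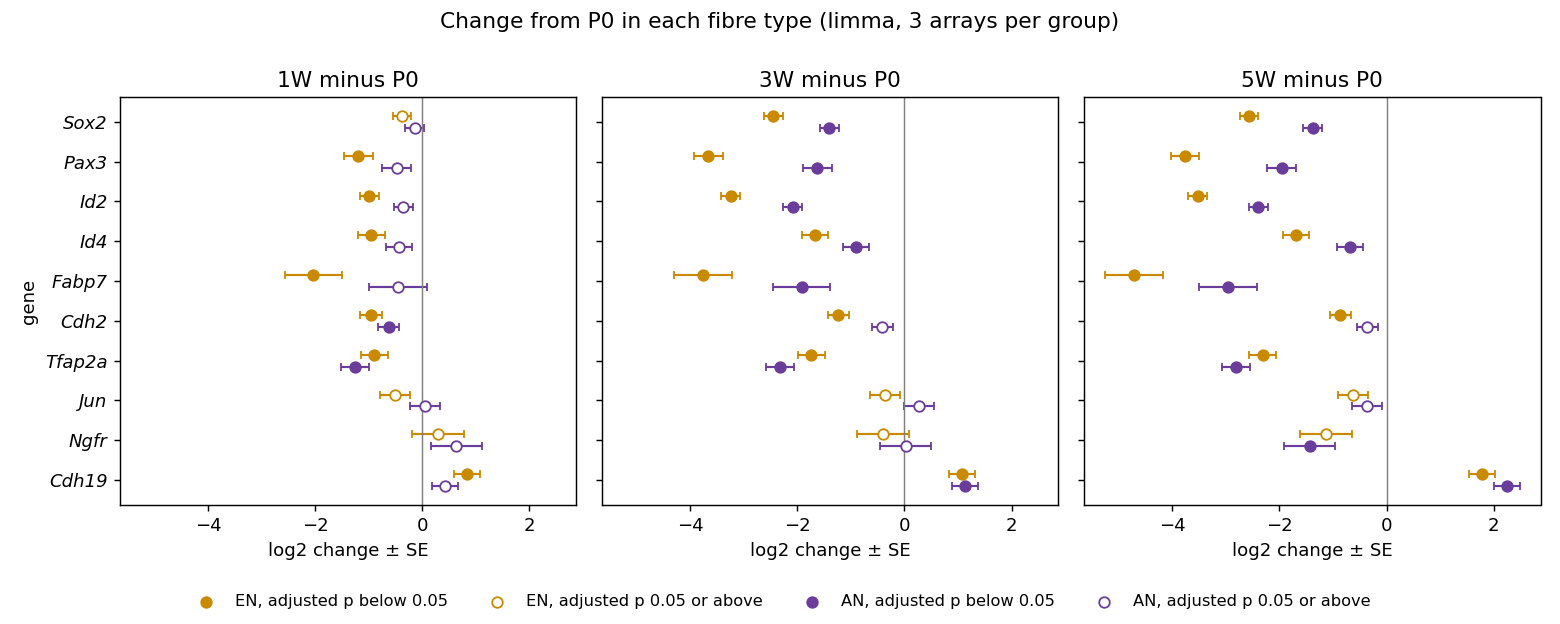
Change of each gene from P0 (log2, horizontal axis) at each later age, EN and AN shown apart, with the standard error of the fit as bars and 0 marking the P0 mean. Fabp7, Pax3 and Id2 reach -4.72, -3.76 and -3.53 in EN at 5 W, and Cdh19 lies to the right of 0 throughout.

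The comparison of AN with EN at each age asks whether the 2 kinds of fibre hold these genes to a like degree. At P0 no member was called (median difference 0.35 over the 10 genes, 0.01 over all probes, background 0.739% in either direction), and 4 (Sox2, Pax3, Tfap2a and Cdh2, all higher in AN) had an unadjusted p under 0.05. Every AN array of P0 lay above every EN array for 6 of 10 members (Sox2, Pax3, Cdh19, Fabp7, Cdh2 and Tfap2a), as it did for 6.75% of all probes tested. At 1 W 5 of 10 were higher in AN (background 2.74% higher, 4% in all), at 3 W 6 of 10 (3.07% higher, 5.89% in all) and at 5 W 6 of 10 (3.52% higher, 6.76% in all), and none was called higher in EN. With a fold above 2 asked for as well, 2 of the 5 at 1 W were called (background 2.79%, or 4.99% on the unadjusted p). The median differences after P0 were, in order of age, 0.67, 1.07 and 1.12, against -0.06, -0.03 and -0.03 over all probes tested. Sox2, Pax3, Id2, Fabp7 and Cdh2 made up the 5 at 1 W, and Id4 joined them at 3 W and 5 W.

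At 5 W, Pax3 was 6.94-fold higher in AN (2.79, SE 0.27, adjusted p 5.17e-06), Fabp7 5.92-fold (2.57, SE 0.54, adjusted p 0.00622) and Sox2 2.99-fold (1.58, SE 0.17, adjusted p 2.16e-05). Id4 followed with 2.32-fold (1.21, SE 0.24, adjusted p 0.00474), Id2 with 2.22-fold (1.15, SE 0.18, adjusted p 5.66e-04) and Cdh2 with 2.13-fold (1.09, SE 0.20, adjusted p 0.00238). These were also the 6 of 10 members for which every AN array of 5 W lay above every EN array, as did 9.37% of all probes tested. Fitted on the 6 arrays of 5 W alone, none of the 6 genes was called (adjusted p 0.0653 for Pax3 to 0.262 for Id4), and without replicate 1, or replicate 2, of every group 2 were. Ngfr differed by 0.00 (SE 0.48, adjusted p 0.997) and Jun by 0.39 (SE 0.28, adjusted p 0.468), with overlapping arrays for both. Tfap2a differed by 0.44 (SE 0.25, adjusted p 0.35), and Cdh19 by 0.77 (SE 0.24, adjusted p 0.0647), which was called with the slide as a block (adjusted p 0.0206).

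At 3 W the differences were 3.02 for Pax3 (8.12-fold, adjusted p 3.37e-06), 2.65 for Fabp7 (6.29-fold, adjusted p 0.00634), 1.44 for Sox2 (2.72-fold, adjusted p 6.94e-05), 1.41 for Cdh2 (2.65-fold, adjusted p 3.28e-04), 1.17 for Id2 (2.25-fold, adjusted p 6e-04) and 0.97 for Id4 (1.96-fold, adjusted p 0.0235). Every AN array of 3 W lay above every EN array for 9 of the 10 members, all but Tfap2a, and for 12.8% of all probes tested. The call for Id4 was lost in 5 of the 6 fits that each left out 1 array (adjusted p 0.055 to 0.0996). Jun, at 0.77 (adjusted p 0.123), was called with the slide as a block (adjusted p 0.0325).

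At 1 W Fabp7 stood 5.23-fold higher in AN (2.39, adjusted p 0.0145), Pax3 3.25-fold (1.70, adjusted p 0.00248), Cdh2 1.88-fold (0.91, adjusted p 0.0125), Id2 1.57-fold (0.65, adjusted p 0.0459) and Sox2 1.55-fold (0.63, adjusted p 0.0488). The call for Pax3 held whichever array was left out. That for Sox2 was lost in all 6 such fits (adjusted p 0.0875 to 0.175), for Id2 in 5 (up to 0.27), for Fabp7 in 3 (up to 0.108) and for Cdh2 in 3 (up to 0.0999). Id4, at 0.71 (adjusted p 0.134), was called with the slide as a block (adjusted p 0.0237). Every AN array of 1 W lay above every EN array for 9 of the 10 members, all but Cdh19, and for 12% of all probes tested.

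Whether the roots drew apart after birth was tested as the AN minus EN difference at a later age less that at P0. No member was called at 1 W (background 0.0632% in either direction), where only Id2 had an unadjusted p under 0.05. At 3 W 2 of 10 were called (background 0.321% higher, 0.615% in all) and at 5 W 3 of 10 (0.689% higher, 1.14% in all), all toward AN. On an unadjusted p with a fold above 2, 4 were called at 3 W and 5 at 5 W (background 4.08% and 4.6%). Pax3 differed by 0.98 at P0 (SE 0.27, adjusted p 0.125) and by 2.04 more at 3 W (SE 0.38, adjusted p 0.0165) and 1.81 more at 5 W (adjusted p 0.0243). Id2 differed by 0.01 at P0 and by 1.16 more at 3 W (SE 0.25, adjusted p 0.0432) and 1.13 more at 5 W (adjusted p 0.0338). Sox2 differed by 0.40 at P0 and by 1.05 more at 3 W (SE 0.25, adjusted p 0.0646) and 1.19 more at 5 W (adjusted p 0.0215). With the slide as a block the change of Sox2 at 3 W was called (adjusted p 0.00545), as was that of Id4 at 5 W (1.02 in the fit without the block, adjusted p 0.209 without and 0.0357 with it). None was called at 5 W with only the 12 compared arrays, and at 3 W none with normexp background correction. Most of these calls turned on single arrays: without 1 array, that for Id2 at 3 W was lost in 10 of 12 fits (adjusted p up to 0.127), for Pax3 at 5 W in 7 (up to 0.0631), for Id2 at 5 W in 6 (up to 0.099), for Sox2 at 5 W in 5 (up to 0.0707) and for Pax3 at 3 W only without the third 3 W EN array (0.0576). Fabp7, the gene with the widest replicate spread, had a further 1.84 at 3 W (SE 0.76, adjusted p 0.431) and was not called.

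AN and EN arrays of the same age and replicate number deviated together, so the 12 such pairs were also entered as a block. No call of the fit without it was lost. The paired fit further called Pax3 (adjusted p 0.00444) and Cdh2 (0.0485) between the roots at P0, Jun (0.0272) and Id4 (0.0492) at 1 W, Jun at 3 W (0.0104) and Cdh19 at 5 W (0.00349), each higher in AN. It also called the change in the difference of Id2 at 1 W (0.024) and of Sox2 (0.0059) and Cdh2 (0.0487) at 3 W. At P0 Pax3 was also called with the slide as a block (adjusted p 0.00328).

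**Figure D3:**
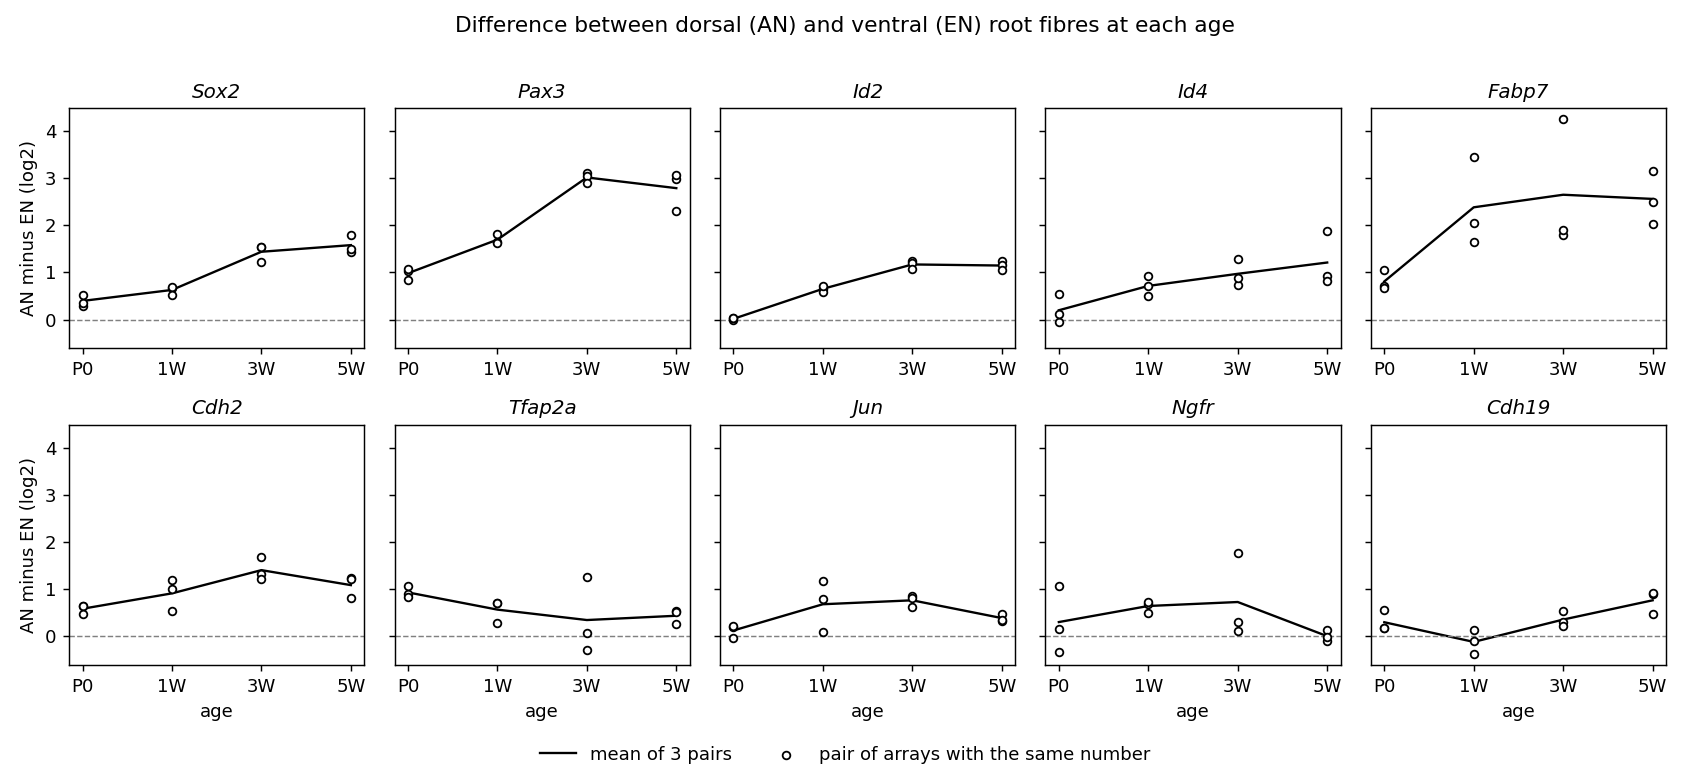
Difference between AN and EN (log2, AN minus EN, vertical axes) for each gene against age (horizontal axes). Points are pairs of arrays with the same replicate number, and the line joins the means of the 3 pairs. The line for Pax3 goes from 0.98 at P0 to 3.02 at 3 W and that for Id2 from 0.01 to 1.17, whereas the lines for Ngfr and Jun stay within 0.77 of 0.

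Markers of other cells moved with the roots and ages. Of the 8 sensory neuron markers (Scn10a, Isl1, which is a motor neuron marker too, and others), 7 were lower than P0 in EN at each later age and 7 were higher in AN than in EN at 1 W, 2 at 3 W and 1 at 5 W. The part of these cells in the root differences of the members was not tested. The third AN array of 3 W, with the most such transcripts, had the lowest Sox2, Pax3, Id2 and Cdh19 of the 3 W AN arrays and the highest Fabp7, Ngfr, Tfap2a, Id4 and Cdh2. Of the 5 motor neuron markers, Isl1, Chodl, Slc18a3 and Slc5a7 were lower than P0 in EN at 5 W, and Chat was not called. There Isl1 was above background on 0 and Slc5a7 on 1 of 3 arrays. In AN at 5 W, Isl1, Chodl and Slc18a3 were lower than P0 and Chat was higher. The part of motor axons in the levels of the members was not tested.

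**Figure D4:**
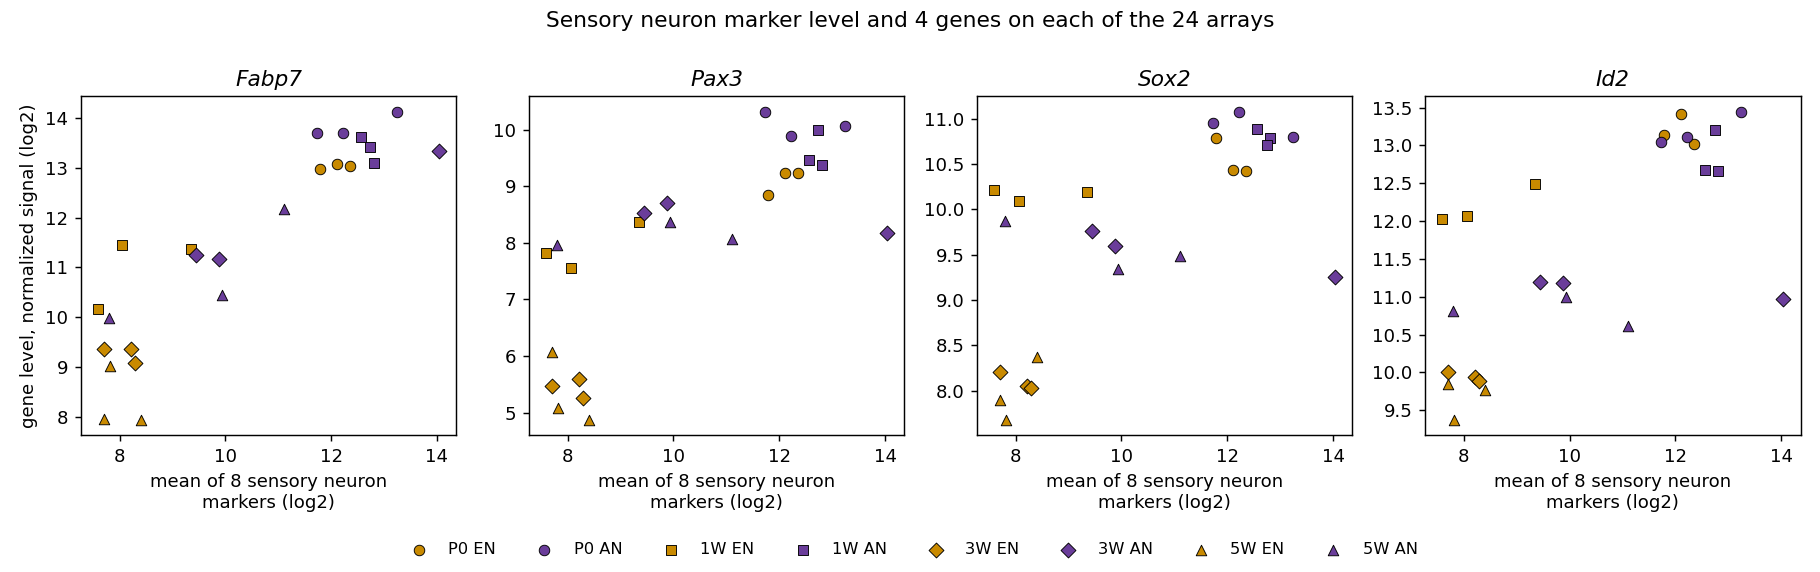
Log2 signal of members (vertical axes) against the mean log2 signal of the 8 sensory neuron markers (horizontal axis) on each array, AN and EN. All P0 arrays and the AN arrays of 1 W lie between 11.73 and 13.25 on the horizontal axis, and the EN arrays after P0 between 7.59 and 9.34.

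Of 6 markers of non-myelinating Schwann cells (Ngfr and Cdh2 among them), only Ncam1 was higher in AN on the day of birth. After that 5, 4 and 5 of the 6 were higher, in order of age, while Ngfr was called at no age. Their mean was 11.42 to 11.66 in AN and 9.70 to 10.25 in EN at 5 W. Of the satellite glia markers 3 of 4 were tested, and 2 (Fabp7 itself and the potassium channel gene Kcnj10) were higher in AN at each age after P0. The other, Glul, was called between the roots at no age. From P0 to 5 W Glul rose, by 2.31 in EN and 2.93 in AN (SE 0.26), where Fabp7 and Kcnj10 fell. Kcnj10 averaged 14.13 in AN and 14.81 in EN at P0 and 13.11 and 10.58 at 5 W, a difference of 2.54 (SE 0.17, adjusted p 4.65e-08). Of 8 astrocyte markers 3 were higher and 1 lower in AN at 1 W, none was called at 3 W and 3 were higher at 5 W. Among the melanocyte markers, which bear on Pax3 and Tfap2a, 6 of 8 were tested, and Tyrp1 was higher in AN at every age after P0 (adjusted p 1.26e-04 at 5 W, where 1 of 3 EN arrays was above background) and Kit at 3 W and 5 W, while Mitf at P0 and Pmel at 3 W and 5 W were lower in AN. Of 8 genes of dividing cells, 7 were lower than P0 in EN at 1 W and all 8 at 3 W and 5 W, and all 8 in AN at each age. At 1 W 11.6% of all probes were lower in EN and 9.35% in AN. Mki67, a marker of dividing cells, changed by -3.64 in EN and -4.15 in AN from P0 to 5 W (SE 0.23), and between the roots 1 of the 8 was higher in AN at P0, 3 at 3 W and none at 1 W or 5 W. Their mean was 12.95 to 13.29 in AN and 12.39 to 12.55 in EN at P0, and 10.01 to 10.47 and 9.65 to 9.81 at 3 W, with no overlap at these ages. Meningeal markers, which hold Tfap2b, were tested for 7 of 8 genes, and 5 were lower than P0 in each root at 3 W and 5 W. Of all probes, 26% were lower in EN at both ages, and 24.9% and 24.2% in AN. Of 5 boundary cap markers, 4 (Prss56, Wif1, Hey2 and Npr3) were lower than P0 in each root at 5 W. The other, Egr2, was higher (0.49 in EN and 1.23 in AN, adjusted p 0.0243 and 1.1e-05). Egr2 was called between the roots at no age. Prss56 was 13.3-fold higher in AN than in EN at P0 (adjusted p 0.00279), and Npr3 was higher in AN at every age after P0 (1.39 at 5 W, SE 0.22, adjusted p 5.41e-04). Of 6 macrophage markers, 5 were higher than P0 in EN and 4 in AN at 5 W (28.2% and 26.4% of all probes). None of the macrophage markers was called between the roots. The part of these cells in the levels of the members was not tested.

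Of 20 other genes of the immature state, all tested, 9 fell and 6 rose in EN from P0 to 5 W, where 26% of all probes were called lower and 28.2% higher. In AN 8 fell and 5 rose (24.2% and 26.4%). Ncam1, the neural cell adhesion molecule, fell 10.2-fold in EN (-3.35, SE 0.13, adjusted p 1.69e-12) and 3.67-fold in AN (-1.87, adjusted p 1.58e-09). The difference between the roots rose from P0 to 5 W for Ncam1 by 1.48 (SE 0.19, adjusted p 8.3e-04) and for Erbb3, a neuregulin receptor of Schwann cells, by 1.14 (SE 0.18, adjusted p 0.00313). Cdh6, a cadherin of the early lineage, fell in both (-2.16 and -2.48, SE 0.20). S100b and Sox10, which stay on in mature Schwann cells, rose in both: S100b by 2.96 in EN and 3.57 in AN (SE 0.12), Sox10 by 0.65 and 1.13 (SE 0.21).

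Of 16 myelin genes, 12 rose and 2 fell in EN at 5 W (28.2% and 26% of all probes), and 14 rose and 1 fell in AN (26.4% and 24.2%). Drp2, a partner of periaxin in the myelin sheath, rose 25.9-fold in EN and 79.8-fold in AN from P0 to 5 W, and Mbp, myelin basic protein, 6.3-fold and 15.4-fold. At 5 W neither was called between the roots (-0.04, SE 0.29, adjusted p 0.964 and 0.04, SE 0.28, adjusted p 0.958).

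Relatives of the members did not all follow them. Sox3, which shares the SoxB1 class with Sox2, was not well above background in EN at 5 W, where it was at least 13.6-fold lower than at P0 (adjusted p 1.35e-09), with the EN mean floored at each array's lowest signal above background. In AN it fell by 2.85 (SE 0.36, adjusted p 2.57e-06), and at 5 W it was at least 2.37-fold higher in AN than in EN (adjusted p 1.79e-04). Sox1, of the same class, was not called from P0 to 5 W (-0.19 in EN and 0.34 in AN, adjusted p 0.461 and 0.197). At 3 W it was lower than P0 in both roots (-0.62 in each, adjusted p 0.0181 in EN and 0.0201 in AN). Tfap2b, the relative of Tfap2a, was above background at P0 alone and at least 3.63-fold lower in EN and 4.8-fold in AN at 5 W (adjusted p 5.67e-08 and 3.99e-08). Id3, by contrast, was 1.78-fold higher in EN at 5 W than at P0 (adjusted p 1.8e-05), and in AN its change was 0.13 (adjusted p 0.427). Of 6 AP-1 partners of Jun, 3 were higher than P0 in each root at 5 W (28.2% of all probes in EN and 26.4% in AN). Fosl2 was among them (1.22 in EN and 1.72 in AN, SE 0.28). Pmp2, the fatty acid binding protein of myelin, rose 4.97-fold and 5.41-fold where Fabp7 fell, and at 5 W it was 3.42-fold lower in AN than in EN (adjusted p 1.71e-04). Of 7 p75 ligands and co-receptors, 2 rose and 4 fell in EN at 5 W (28.2% and 26% of all probes). In AN 2 rose and 3 fell (26.4% and 24.2%). Of 7 genes known to need Jun in injured nerve (Sox2 and Ngfr included), none was higher than P0 at 5 W. In EN 4 were lower (Artn, Olig1, Bdnf and Sox2), and in AN the 2 lower ones were the members Sox2 and Ngfr (background 26% and 24.2% lower).

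Over the 8 group means, Sox2 ran most alike with Pax3 and Id2 among the members (Pearson r 0.969 and 0.968), and Pax3 with Fabp7 (0.977). The r of Cdh19 with the others lay between -0.826 (Tfap2a) and -0.105 (Cdh2). Among 18589 genes the closest to Sox2 were C130030K03Rik (r 0.992), Lgr5 (0.990) and Slitrk2 (0.990), and those closest to Pax3 were Negr1 (0.994), Sostdc1 (0.991) and Pcdh7 (0.991). These values describe 8 points that share their arrays and ages.

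Further probes read 4 of the genes. A second Id2 probe (A_52_P94071), 1176 bases away and above background on all 24 arrays, lost 6 of the calls of the chosen probe. It gave no call in EN at 1 W (-0.17, adjusted p 0.685) or in AN at 3 W (-0.05, adjusted p 0.892). Its change in the root difference was not called at 3 W (1.28, adjusted p 0.19) or 5 W (0.96, adjusted p 0.331). At 1 W it averaged 8.36 in AN and 8.12 in EN, and in AN at 3 W 8.32, so that these groups lay closer together than on the chosen probe. A second Pax3 probe (A_55_P2733087), 81905 bases away and above background on 13 arrays, was at least 2.02-fold higher in AN than in EN at 1 W and at least 1.84-fold at 3 W (adjusted p 0.00353 and 7.98e-06), where no EN array was well above background. It gave no call in AN at 3 W (-0.55, adjusted p 0.15). A dim second Cdh2 probe (A_55_P2720238, above background on 9 arrays) lost 5 of the calls of the chosen probe. It made no call in EN at 1 W or 3 W (adjusted p 0.0771 and 0.125). Between the roots it made none at 1 W or 3 W (adjusted p 0.527 and 0.34). At 5 W it was called higher in AN (adjusted p 0.00745), where 1 of 3 AN arrays and 0 EN arrays were above background. A second Tfap2a probe (A_55_P2735145, above background on 6 arrays) was at least 2.62-fold lower in AN at 3 W and 3.06-fold at 5 W than at P0 (adjusted p 1.89e-05 and 3.35e-07). It lost 2 of the calls of the chosen probe and made none in EN at 1 W (adjusted p 0.345). Its calls in EN at 3 W and 5 W (adjusted p 0.00334 and 0.00128) had 1 of 3 P0 arrays above background. The 2 further Tfap2a probes were above background on 0 arrays.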

How the data were processed

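Per the labels and methods, RNA of each root was labelled with Cy3 and hybridised to Agilent SurePrint G3 mouse arrays, and the authors extracted the spot intensity with Feature Extraction (10.7.1.1 per the submitters' processing notes). The deposited table holds log2 values that the authors quantile normalized in GeneSpring, and every column matched its own array's scanner intensity best. Here limma 3.58.1 (R 4.3.3) fitted the 8 group means to all 24 arrays (16 residual degrees of freedom), with 17 comparisons and Benjamini-Hochberg adjustment over 36409 probes, leaving out 262 values flagged as outliers. The steps were tested on simulated data.

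The 10 members and all companion lists were chosen with earlier results of these data known. Each member was named in every main comparison through its brightest probe. From each companion list a few genes or none were named, among them some whose role bears on a member, and the brightest was not always named. Same-age AN and EN arrays with the same replicate number deviated together in 12 of 12 pairs (r 0.107 to 0.646, median 0.458), and with other numbers in 1 of 24 (median -0.22), so these pairs were entered as a block, a choice made after seeing the data. The pairing comes from the data, and the labels give only the number.

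Alternatives were the scanner intensity with quantile or 75th percentile scaling, normexp (offset 50), other filters, probe means, array weights, slide and replicate blocks, only the compared arrays, calls with a fold above 2, and leaving out arrays. With the slide as a block, 3 W was linked to P0 and 1 W through 5 W arrays alone. Precision is limited by 3 arrays per group: median signals ran from 45.4 to 191 over local backgrounds of 23 to 46, and 55.1% to 71.7% of gene spots were well above background.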

Additional observations from a re-analysis of the deposited data

Results flagged for a closer look

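For 3 genes the difference between afferent and efferent fibres changed between P0 and a later age by a test of the change itself, in limma with adjustment over all probes tested. The AN minus EN difference of Pax3 was larger than at P0 by 2.04 at 3 W (SE 0.38, adjusted p 0.0165) and by 1.81 at 5 W (SE 0.38, adjusted p 0.0243). That of Id2 was larger by 1.16 at 3 W (SE 0.25, adjusted p 0.0432) and by 1.13 at 5 W (SE 0.25, adjusted p 0.0338). That of Sox2 was larger by 1.19 at 5 W (SE 0.25, adjusted p 0.0215). Without 1 array, the call was lost in 10 of 12 fits for Id2 at 3 W, in 7 for Pax3 at 5 W and in 6 for Id2 at 5 W. For Sox2 at 5 W it was lost in 5 and for Pax3 at 3 W in 1. None was called at 3 W with normexp background correction or at 5 W with only the compared arrays, and a second Id2 probe gave no call at either age. Groups of 3 arrays are too small for a test of single outlying arrays.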

How the results depend on the processing

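Of 170 changes of members (10 genes in 17 comparisons), 75 were called. Under alternatives other than leaving out arrays, 728 of 791 values of called changes kept direction and call, 63 lost the call and none reversed; 51 of 1013 values of uncalled changes became called. Of 75 called changes, 54 stayed called whichever single array was left out. The cause of each shift was not tested. The number of members called moved by more than 1.5 times as follows. A fold above 2, added to the adjusted or to an unadjusted p, gave 2 in EN at 1 W (7 otherwise), 1 in AN at 1 W (2 otherwise) and 2 in AN against EN at 1 W (5 otherwise). With the unadjusted p and that fold, counts were also 2 for AN from 3 W to 5 W (1 otherwise), 4 for the change in the root difference at 3 W (2 otherwise) and 5 at 5 W (3 otherwise). In AN at 1 W, 75th percentile scaling gave 1, the filter for all arrays 1 and array weights 5. Array weights gave 1 for EN from 3 W to 5 W and 1 for the roots at P0 (0 otherwise for both). At P0 normexp gave 2, probe means 1 and the slide block 1, and for AN from 3 W to 5 W the slide block gave 0. With only the compared arrays, AN from 3 W to 5 W, the roots at 5 W and the change in the root difference at 5 W each had 0, against 1, 6 and 3. No filter and probe means each gave 3 between the roots at 1 W. For the change in the root difference, normexp gave 0 at 3 W and 1 at 5 W, and no filter gave 1 at 3 W. With the 12 AN and EN pairs as a replicate block, counts were 2 between the roots at P0, and 1 and 4 for the change in the root difference at 1 W and 3 W, with no call lost. The replicate number across all ages as a block lost 2 calls and gained 2. Leaving out arrays, the counts ran from 2 to 7 in EN at 1 W, 8 to 8 at 3 W and 7 to 10 at 5 W, and in AN from 1 to 3, 6 to 8 and 6 to 8. From 1 W to 3 W they ran from 3 to 5 in EN and 2 to 6 in AN, and from 3 W to 5 W from 0 to 0 and 0 to 2. Between the roots they ran from 0 to 0 at P0, 0 to 4 at 1 W, 4 to 6 at 3 W and 2 to 7 at 5 W, and for the change in the root difference from 0 to 0, 0 to 3 and 0 to 4. Low signal limits Pax3 and Tfap2a in EN at 5 W.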
